A study of Mus musculus with 6 samples.

Results

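Hypoxia-inducible factors (HIF) and the genes around them were examined as 9 genes of the 37620 in the deposited count table, found by their symbols. They were the factor subunits Hif1a, Epas1 and Arnt, the regulators Vhl, Egln1 and Egln3, and the targets Vegfa, Adm and Ankrd37. All 9 were present in the table and all 9 passed the filter on low counts. RNA came from the apex of the heart of C57/BL6J mice of wild-type genotype. All had undergone 30 min of ischaemia, in which coronary blood flow is interrupted, and 120 min of reperfusion. The 3 libraries of the dexmedetomidine group came from animals given 10 µg/kg of dexmedetomidine, a sedative agonist of alpha-2 adrenergic receptors, and the 3 of the vehicle group from animals given its vehicle. Yohimbine is an antagonist of the same receptors, and its vehicle, without the drug, had been given to each group. Each agent was infused into the tail vein over 10 min. In the dexmedetomidine group the yohimbine vehicle preceded the drug by 30 min and surgery followed 20 min after the drug, and for the vehicle group the labels give no such timing. Age and sex of the animals are not given in the labels, and all samples had undergone ischaemia and reperfusion, so levels are compared between 2 kinds of reperfused heart.

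HIF is a dimer of an oxygen-sensitive alpha subunit, encoded by Hif1a or Epas1 (HIF-2α), and the constant partner encoded by Arnt. With oxygen present, prolyl hydroxylases (PHD2 from Egln1 and PHD3 from Egln3) hydroxylate the alpha subunit, and the von Hippel-Lindau protein from Vhl then directs it to the proteasome. When oxygen is short the subunit escapes this and switches on genes for vessel growth, glycolysis and survival, among them the genes of its own hydroxylases. Since HIF is controlled mainly through the stability of the protein, a transcript level does not report its activity.

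HIF binds DNA at a core of the letters ACGTG or GCGTG. These were searched on both strands in the 300 bases around the start sites that RefSeq gives on build GRCm38.p6, 250 before and 50 after the start. That window was at hand for 8 of the 9 genes, all but Epas1, and 2 windows were at hand for Vegfa. The core was found in 7 of the 9 windows, against 43.8% of 32851 windows over all genes. Both Vegfa windows are among the 9, and only the more downstream of the 2 held the core. The windows of 4 of the genes that HIF is known to induce are printed in the direction of transcription, to show where the letters lie. Each of these 4 held a match, and the windows of Vegfa, also a known target, are described below without print. Capitals mark each match, and a match on the other strand reads CACGT or CACGC.
Ankrd37: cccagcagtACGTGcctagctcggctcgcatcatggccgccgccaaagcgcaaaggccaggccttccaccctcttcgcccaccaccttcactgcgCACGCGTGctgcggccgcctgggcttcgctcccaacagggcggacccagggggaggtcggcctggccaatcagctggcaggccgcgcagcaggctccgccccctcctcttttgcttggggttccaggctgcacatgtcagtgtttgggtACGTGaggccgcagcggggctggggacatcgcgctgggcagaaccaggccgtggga
Egln1: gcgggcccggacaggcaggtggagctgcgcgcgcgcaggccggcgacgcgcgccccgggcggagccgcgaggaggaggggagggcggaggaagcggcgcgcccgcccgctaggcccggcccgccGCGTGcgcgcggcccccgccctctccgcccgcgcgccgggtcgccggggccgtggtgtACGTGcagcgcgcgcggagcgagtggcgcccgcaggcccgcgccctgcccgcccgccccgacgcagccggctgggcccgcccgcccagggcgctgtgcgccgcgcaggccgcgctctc
Egln3: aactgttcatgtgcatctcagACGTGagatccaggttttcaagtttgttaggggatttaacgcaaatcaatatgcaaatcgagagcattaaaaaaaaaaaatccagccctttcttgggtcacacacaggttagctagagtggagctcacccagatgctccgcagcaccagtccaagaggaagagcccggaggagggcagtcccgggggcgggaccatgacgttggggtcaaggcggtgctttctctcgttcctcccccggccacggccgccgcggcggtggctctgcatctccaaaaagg
Adm: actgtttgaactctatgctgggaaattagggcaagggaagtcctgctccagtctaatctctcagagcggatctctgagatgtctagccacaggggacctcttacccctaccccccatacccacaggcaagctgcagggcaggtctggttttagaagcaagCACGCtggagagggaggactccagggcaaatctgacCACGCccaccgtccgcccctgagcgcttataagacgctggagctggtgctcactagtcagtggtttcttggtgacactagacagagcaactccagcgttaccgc
The Ankrd37 window (chr8:45999801-46000100, minus strand) held 4 matches, which 3.86% of all windows had or exceeded. They lay 241, 155, 152 and 6 bases upstream of the start. Those at 155 and 152 overlap in the palindrome CACGCGTG and were counted once on each strand. The Egln1 window (chr8:124949205-124949504, minus strand) held 2, at 126 and 68 bases upstream. In Egln3 (chr12:54203825-54204124, minus strand) a single match lay 229 bases upstream. In Adm (chr7:110627407-110627706, plus strand) 2 lay 90 and 54 bases upstream, both on the other strand. At least 2 matches stood in 20.6% of all windows. Vegfa lies on the minus strand, and its window further upstream (chr17:46032328-46032627) held no match. The 2 matches of Vegfa lay in the window further downstream in the direction of transcription (chr17:46025114-46025413). That window lies beyond the start site of the other, and whether it serves as a promoter was not tested. The Hif1a window (chr12:73907617-73907916) held 3, of which 2 overlap in the palindrome CACGTG and were counted once on each strand. The Arnt window (chr3:95434140-95434439) held 1 match and the Vhl window (chr6:113623744-113624043) none. Matches are a description of the letters in these windows, and no binding was measured.

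The libraries held 42.7 to 56.6 M gene counts. Mitochondrially encoded genes took 22% to 25.2% of gene counts after vehicle. After dexmedetomidine they took 27.1%, 36.9% and 38.2% in replicates 1, 2 and 3. Fold changes followed the GC content of genes. In 5 equal bins of the genes tested, from lowest to highest GC, the median log2 fold change (dexmedetomidine minus vehicle) was 0.47, 0.15, -0.01, -0.15 and -0.30. Hif1a lay in the bin of lowest GC, Arnt in the next, Vhl, Egln3, Vegfa, Adm and Ankrd37 in the middle one, Epas1 in the one above and Egln1 in the highest. The change of each member and of each gene named from a list is therefore given also from a fit in which the smooth trend of every library on GC content and gene length was removed. In that fit the medians of the 5 bins were -0.09, -0.04, -0.03, -0.02 and -0.01. Whether the trend is technical or belongs to the difference between the groups was not tested, and the correction removes it in either case. Marker genes of cardiac cell types were present, with the cardiomyocyte list (6 of 6 markers tested) at 30743 to 43474 CPM in sum and the endothelial list (7 of 7) at 1032 to 1176 CPM. CPM are counts per 1e6 of the TMM-scaled library size. In bulk tissue, fewer cells of a type and less RNA per cell cannot be told apart.

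Levels of the 9 genes spanned a wide range when scaled by gene length. Egln1 stood highest, with a mean of 143 CPM per kilobase over the 6 libraries (range 120 to 169), followed by Epas1 with 97.6 (90.3 to 105). Vegfa had 32.9 (27.1 to 38.6), Hif1a 21.2 (15.5 to 27.3) and Egln3 20.8 (15.4 to 28.5). Within a library Vegfa exceeded Hif1a and Egln3 in 6 of 6, while Hif1a exceeded Egln3 in 4 of 6. Adm had 10.3 (6.85 to 13.7) and Arnt 6.78 (6.06 to 7.53), with Adm the higher in 5 of 6 libraries. Vhl had 2.93 (2.37 to 3.40) and Ankrd37 0.917 (0.388 to 1.68). Of the subunits, Epas1 was thus the most abundant transcript per length and Arnt the least, with no overlap among the 3.

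Between the groups, none of the 9 genes passed an adjusted p of 0.05 in edgeR's quasi-likelihood test, in which 0% of the 14738 genes tested passed. None had an unadjusted edgeR p under 0.05 either, against 21.5% of all genes tested, though 1 or 2 did in 6 of the 15 alternative fits. In DESeq2 no member passed the adjusted threshold, against 8.63% of genes, and 1 of 9 (Ankrd37) had an unadjusted p under 0.05, against 22.3%. With limma-voom and quality weights no member passed either threshold, against 14.0% of genes at the adjusted one and 31.9% at the unadjusted one. The 3 libraries of one group lay all above or all below those of the other for 2 of the 9 genes, Ankrd37 (higher after dexmedetomidine) and Egln1 (lower), against 27.6% of genes tested. The members' share is below or near that of all genes by each of these counts. Their median log2 fold change was 0.12, beside 0.00 for all genes tested, with 7 of 9 above 0, against 50.3% of genes.

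**Figure D1:**
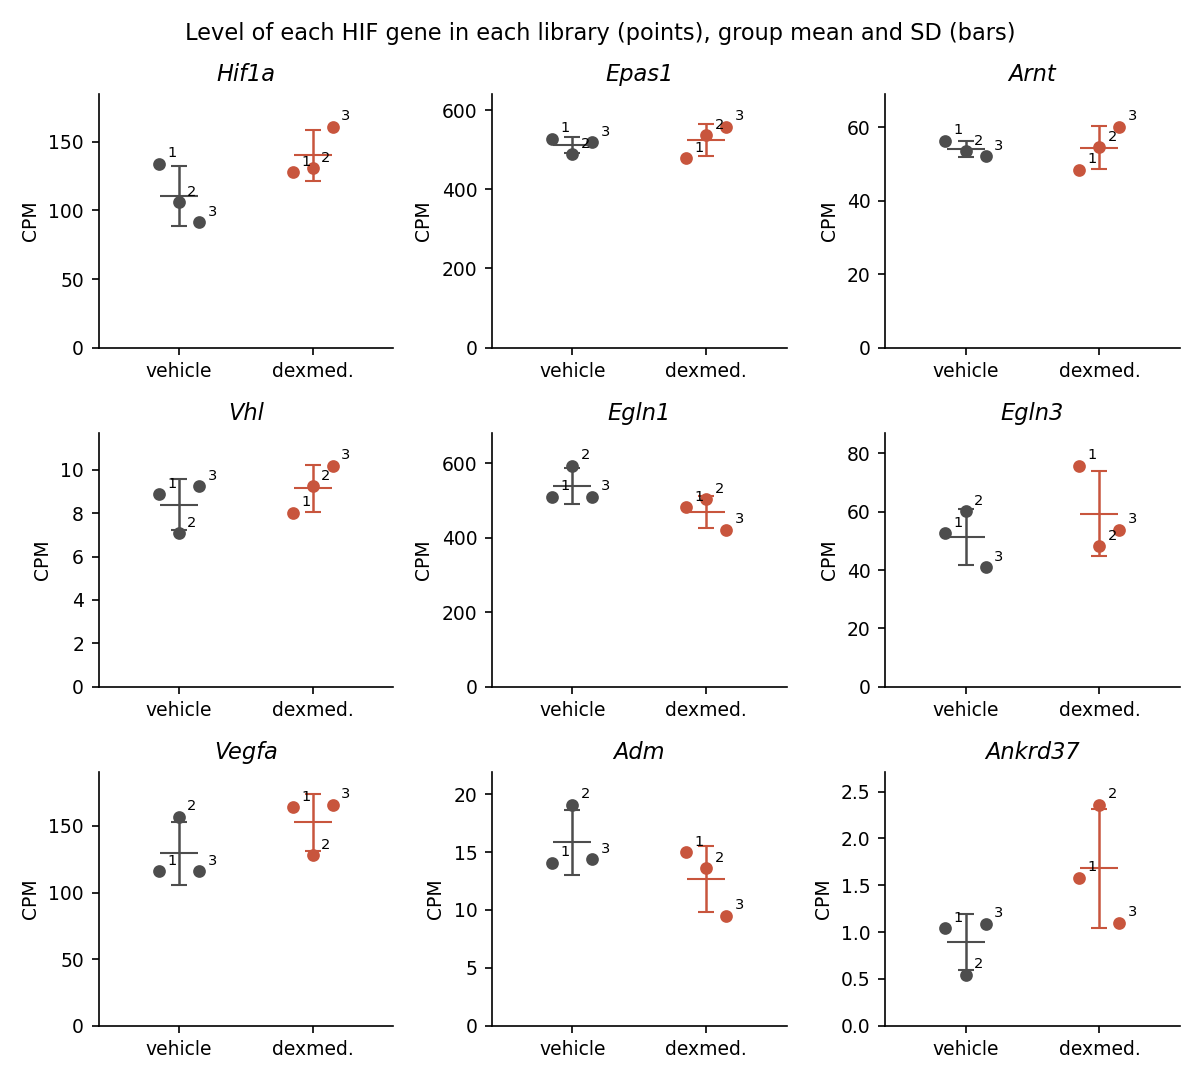
Level of each of the 9 HIF genes in CPM (vertical axis, from 0) in the 3 vehicle (grey) and 3 dexmedetomidine (red) libraries, with replicate numbers beside the points and the group mean and SD as bars. The groups share a range in 7 panels. Egln1 and Ankrd37 are the panels without overlap, by 504 against 511 CPM and by 1.10 against 1.09 CPM at the nearest points.

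Among the subunits, Hif1a (ENSMUSG00000021109), the alpha subunit best known for the glycolytic response, had levels of 134, 106 and 91.2 CPM after vehicle and of 128, 131 and 161 CPM after dexmedetomidine (replicates 1, 2 and 3 in that order, here and throughout). Vehicle replicate 1 lay inside the range of the dexmedetomidine group, and the other vehicle libraries below it. The log2 fold change was 0.34 (SE 0.16, edgeR adjusted p = 0.255), a 1.27-fold difference with a 95% interval of 0.99 to 1.63. With the GC and length correction it was -0.29 (SE 0.19, adjusted p = 0.568), so the direction of Hif1a depends on that step. Without vehicle replicate 3 it was 0.22. Its transcript has a GC content of 41.3%, and the median log2 fold change of 0.47 in its GC bin is larger than its own. With the correction the median of that bin was -0.09. Exons of Hif1a overlap those of the antisense model Gm15283, which had 16 to 35 counts per library, against 5117 or more for Hif1a.

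Epas1 (ENSMUSG00000024140), the alpha subunit prominent in endothelium, was nearly level at 528, 489 and 519 CPM after vehicle and 479, 537 and 558 CPM after dexmedetomidine. The dexmedetomidine libraries lay on either side of the vehicle range. Its log2 fold change was 0.04 (SE 0.12, edgeR adjusted p = 0.893), with an interval of 0.86 to 1.22-fold, and 0.10 (SE 0.12) with the correction. The endothelial marker list overlapped between the groups, at 1057 to 1176 CPM after vehicle and 1032 to 1095 after dexmedetomidine. Arnt (ENSMUSG00000015522), the shared partner, stood at 56.4, 53.5 and 52.1 CPM after vehicle and 48.5, 54.6 and 60.2 CPM after dexmedetomidine, again with the vehicle values inside the range of the other group. Its log2 fold change was 0.01 (SE 0.12), with an interval of 0.84 to 1.22-fold, and -0.15 (SE 0.12) with the correction.

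The balance of the alpha subunits was taken within each library as the length-scaled log2 ratio of Epas1 to Hif1a, which does not depend on library size. It was 2.13, 2.36 and 2.66 after vehicle and 2.06, 2.18 and 1.95 after dexmedetomidine, so Epas1 exceeded Hif1a in all 6 libraries. The mean difference was -0.32 (2.38 ± 0.26 against 2.06 ± 0.12, SD, n = 3 each, exact two-sided permutation p = 0.2, where 0.1 is the smallest possible). With the GC and length correction the difference was 0.34 (exact permutation p = 0.4), the opposite direction.

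Of the regulators, Vhl (ENSMUSG00000033933), the recognition subunit of the ubiquitin ligase, measured 8.88, 7.09 and 9.25 CPM after vehicle and 8.03, 9.24 and 10.2 CPM after dexmedetomidine. These ranges overlapped (log2 fold change 0.12, SE 0.18, interval 0.82 to 1.44-fold, 0.13 with the correction, and 0.01 without vehicle replicate 2). Egln1 (ENSMUSG00000031987), the main oxygen sensor among the hydroxylases, measured 511, 594 and 511 CPM after vehicle and 482, 504 and 422 CPM after dexmedetomidine. Each dexmedetomidine library was below each vehicle library, by a narrow margin for replicate 2. This was a log2 fold change of -0.20 (SE 0.13, edgeR adjusted p = 0.386, interval 0.72 to 1.06-fold). It was -0.12 without vehicle replicate 2, and 0.02 (SE 0.13) with the correction, where the groups overlapped. Its GC content is 56.0%, in the bin of genes with a median of -0.30. Cardiomyocyte markers were likewise lower in sum, at 36286 to 43474 CPM after vehicle and 30743 to 35445 after dexmedetomidine (5 of 6 lower, none at 0), and their part in the Egln1 values was not tested.

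Egln3 (ENSMUSG00000035105), the hydroxylase gene that HIF induces most readily, varied between libraries of a group. It stood at 52.6, 60.2 and 41.0 CPM after vehicle and at 75.8, 48.3 and 53.9 CPM after dexmedetomidine. Dexmedetomidine replicate 1 was the highest of all, and the remaining 2 of its group lay within the vehicle range. The log2 fold change of 0.21 (SE 0.20, interval 0.85 to 1.57-fold) was 0.28 (SE 0.18) with the correction and became -0.01 without dexmedetomidine replicate 1.

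Among the targets, Vegfa (ENSMUSG00000023951), the vascular growth factor, measured 116, 157 and 116 CPM after vehicle and 164, 128 and 166 CPM after dexmedetomidine. Vehicle replicate 2 was above dexmedetomidine replicate 2, so the groups overlapped. In log2 the difference was 0.23 (SE 0.16, edgeR adjusted p = 0.440, interval 0.91 to 1.51-fold), and 0.25 with the correction. With 1 library left out it ranged from 0.15 (without vehicle replicate 1) to 0.39 (without vehicle replicate 2, edgeR adjusted p = 0.261).

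Adm (ENSMUSG00000030790), which codes for the vasodilator peptide adrenomedullin, went the other way, at 14.1, 19.1 and 14.4 CPM after vehicle and 15, 13.6 and 9.51 CPM after dexmedetomidine. Dexmedetomidine replicate 3 was the lowest and vehicle replicate 2 the highest, and the remaining 4 libraries lay between 13.6 and 15 CPM. The log2 fold change was -0.32 (SE 0.20, edgeR adjusted p = 0.396, interval 0.59 to 1.10-fold), and -0.22 (SE 0.18) with the correction. It was -0.16 without vehicle replicate 2 and -0.15 without dexmedetomidine replicate 3, each less than 1 SE of the full fit from 0.

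Ankrd37 (ENSMUSG00000050914), an ankyrin-repeat gene with the most HIF cores in its window, had the largest fold change of the 9 and the fewest reads. Its counts were 61, 27 and 63 after vehicle and 81, 92 and 43 after dexmedetomidine. In CPM these were 1.04, 0.544 and 1.09 against 1.58, 2.36 and 1.10, so vehicle replicate 3 and dexmedetomidine replicate 3 were nearly the same. The log2 fold change was 0.91 (SE 0.43, edgeR adjusted p = 0.254), 1.88-fold with an interval of 0.97 to 3.64, and 1.01 (SE 0.43, adjusted p = 0.368) with the correction. Without dexmedetomidine replicate 2 it was 0.59. Ankrd37 shares exon sequence with the opposite-strand genes Ufsp2, at 577 to 732 counts per library, and Lrp2bp, at 14 to 60. The strand setting of the counting is not given in the sources used here, so its few counts are uncertain.

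**Figure D2:**
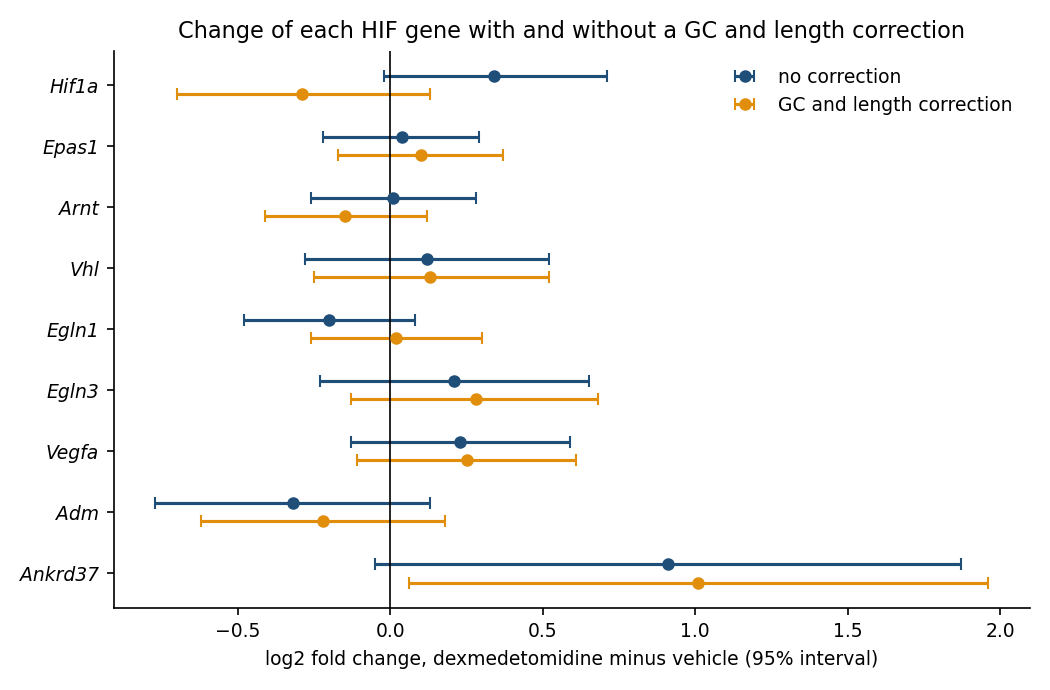
Log2 fold change (dexmedetomidine minus vehicle, horizontal axis) of each gene with its 95% interval, without (blue) and with (orange) the GC and length correction. Each interval crosses 0 except that of Ankrd37 with the correction, whose adjusted p was 0.368. Hif1a goes from 0.34 to -0.29 and Egln1 from -0.20 to 0.02.

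Over the log2 CPM of the 6 libraries, Pearson's r between 2 of the 9 genes ranged from -0.91 (Vhl with Adm) to 0.95 (Egln1 with Adm). Epas1 followed Vhl (r = 0.89) and Arnt (0.86) and went against Adm (-0.82), and Vhl went against Egln1 (-0.81). The value was 0.75 for Egln3 with Vegfa and 0.41 for Hif1a with Vegfa. These are descriptions over 6 points that share their library and its GC trend, picked from 36 pairs after all were seen. Of 9368 genes at 5 CPM or more, those most like Hif1a over the 6 libraries were Ttll4 (r = 0.991), Dab2 (0.989) and Spata6 (0.988). Those most like Vegfa were Exosc2 (0.976), Lactb (0.969) and Vopp1 (0.969). With 6 points and this many genes such values are a description only.

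The wider pathway was read from 6 lists by role, 82 genes in all, of which 78 passed the filter. The 4 others were Aldoc, Car12, Epo and Adm2, with 0 to 18 counts per library. Epo, the erythropoietin gene, had a count of 0 in each library, which allows up to 3 counts. None of the 78 passed in edgeR (0% of all genes). At an unadjusted edgeR p under 0.05, 9 were higher and 15 lower after dexmedetomidine, against 12.5% and 9.03% of all genes. DESeq2 called 13 (8 higher, 5 lower), against 5.97% and 2.66% of all genes, and limma-voom called 18 (9 of them higher), against 8.79% higher and 5.20% lower. Groups did not overlap for 12 genes that were higher and 13 that were lower, against 15.6% and 12% of genes tested. After the correction they did not overlap for 15 of the 78, against 17.4%. Without vehicle replicate 3 edgeR called 12 of the 78 at the adjusted threshold, against 8.31% of genes.

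**Figure D3:**
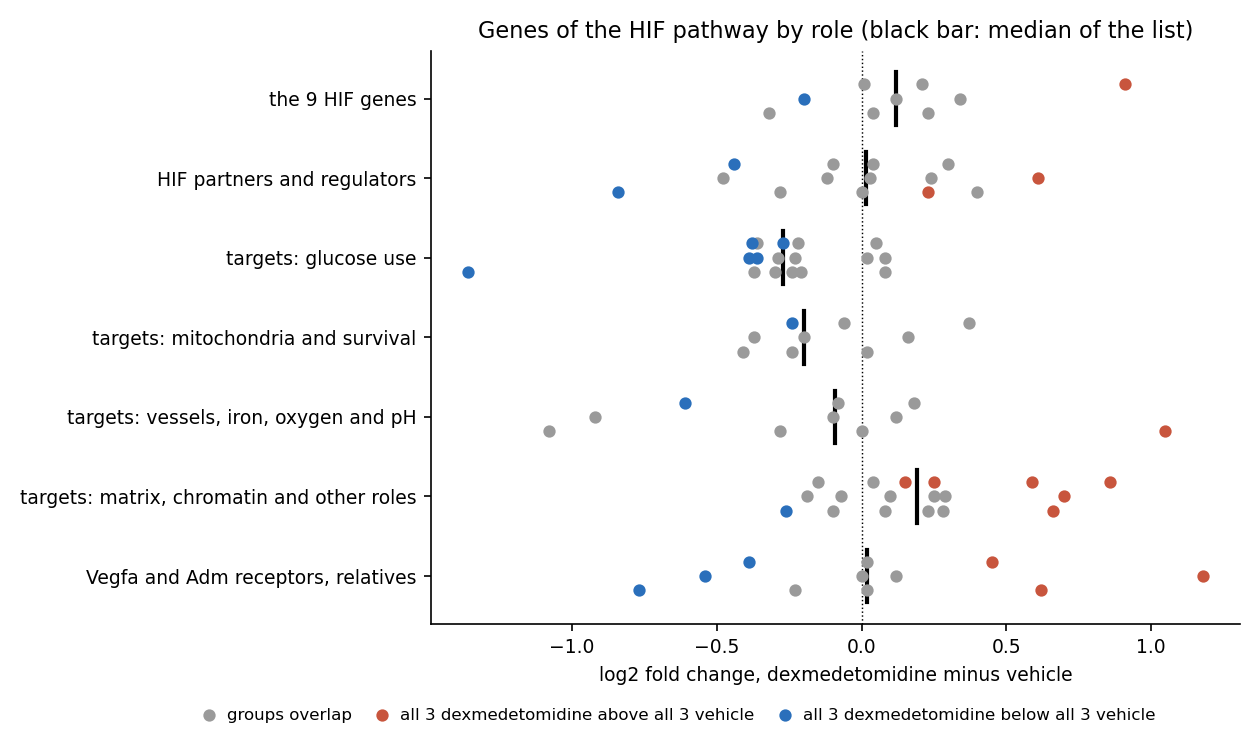
Log2 fold change (dexmedetomidine minus vehicle, horizontal axis) of each tested gene in the 9 HIF genes and the 6 lists by role, with vertical offsets only to separate points. Red and blue points are genes whose 3 dexmedetomidine libraries lie all above or all below the 3 vehicle libraries, and the black bar is the list's median, from -0.27 for glucose use to 0.19 for matrix, chromatin and other roles.

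Partners and regulators of the factor, 14 of 14 tested, were 7 higher and 7 lower, with a median of 0.01. Cul2, the cullin scaffold of the ligase that carries the Vhl protein, stood at 34.2, 29.9 and 31.7 CPM after vehicle and at 47.0, 48.8 and 50.7 CPM after dexmedetomidine. All 3 dexmedetomidine libraries were thus higher, by 0.61 in log2 (SE 0.12, edgeR adjusted p = 0.101, DESeq2 adjusted p = 0.00167). Cul2 has a GC content of 40.6%, and with the correction its log2 fold change was -0.04 and the groups overlapped. Egln2, the third hydroxylase, measured 52.9, 59.0 and 55.0 CPM after vehicle and 45.2, 42.3 and 35.6 CPM after dexmedetomidine. Its log2 fold change of -0.44 (SE 0.13, edgeR adjusted p = 0.114) was -0.02 with the correction. Cited2, which competes with HIF for the coactivators p300 and CBP, measured 95, 157 and 78.0 CPM after vehicle and 69.5, 54.9 and 59.5 CPM after dexmedetomidine. It was lower in each dexmedetomidine library, with a log2 fold change of -0.84 (SE 0.24, edgeR adjusted p = 0.118), and the groups stayed apart with the correction (-0.63). Vehicle replicate 2 was the highest, and without it the value was -0.50.

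Targets in glucose use were lower for 13 of 17 tested, with a median log2 fold change of -0.27 (-0.16 with the correction, 14 of 17 lower). Of all 14738 genes tested, 8023 were lower with the correction, with a median of -0.03. Slc16a3, the lactate exporter, measured 9.15, 20.7 and 11.2 CPM after vehicle and 4.20, 5.18 and 6.63 CPM after dexmedetomidine. Its log2 fold change was -1.36 (SE 0.32, edgeR adjusted p = 0.103), and -1.14 with the correction, with no overlap in either. Vehicle replicate 2 was the highest, and without it the log2 fold change was -0.94. Hexokinase 1, Hk1, had a log2 fold change of -0.39 (SE 0.14) and aldolase A, Aldoa, of -0.38 (SE 0.14), and these were -0.26 and -0.12 with the correction. Cardiomyocyte markers were lower in sum in the same libraries, as given with Egln1, and their part in these values was not tested. The median of the mitochondrial and survival targets was -0.20, with 6 of 9 lower. In that list the mitophagy receptor gene Bnip3l had a log2 fold change of 0.37 (SE 0.15), which was -0.15 with the correction. Higd1a, a hypoxia-induced mitochondrial protein gene, was at -0.37 (SE 0.15), at -0.27 with the correction and at -0.20 without vehicle replicate 2. Lonp1, a mitochondrial protease gene, was at -0.24 (SE 0.12) and near 0 with the correction.

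Targets in vessels, iron, oxygen and pH were 4 higher and 6 lower of 10 tested (median -0.09). Angptl4, a secreted inhibitor of lipoprotein lipase, measured 106, 139 and 99.8 CPM after vehicle and 79.8, 72.6 and 72.7 CPM after dexmedetomidine. Its log2 fold change was -0.61 (SE 0.14, edgeR adjusted p = 0.102), and -0.58 with the correction, with no overlap in either. Without vehicle replicate 2 it was -0.45. Tfrc, the transferrin receptor that brings iron into cells, measured 18.6, 20.1 and 15.1 CPM after vehicle and 52.1, 27.0 and 32.0 CPM after dexmedetomidine. The log2 fold change of 1.05 (SE 0.24, edgeR adjusted p = 0.102) was 0.27 with the correction, where the groups overlapped. Hmox1, haem oxygenase 1, was at -1.08 (SE 0.39), with overlapping groups at 256, 533 and 235 CPM after vehicle and 101, 245 and 138 CPM after dexmedetomidine. It was -0.90 (SE 0.39) with the correction, and -0.61 without vehicle replicate 2.

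Targets in matrix, chromatin and other roles were higher for 13 of 18, with a median of 0.19, and for 9 of 18 with a median of 0.02 after the correction. After it, 6715 of all 14738 genes tested were higher, with a median of -0.03. Lox, the lysyl oxidase that crosslinks collagen, measured 15.9, 15.2 and 17.0 CPM after vehicle and 24.9, 34.1 and 28.4 CPM after dexmedetomidine. It was higher in each dexmedetomidine library, by a log2 fold change of 0.86 (SE 0.15, edgeR adjusted p = 0.101, DESeq2 adjusted p = 0.000324). With the correction the log2 fold change was 0.53 (edgeR adjusted p = 0.291), still with no overlap. Ppp1r3c, a glycogen-targeting phosphatase subunit, measured 95.5, 78.7 and 99.4 CPM after vehicle and 140.2, 129.7 and 141 CPM after dexmedetomidine. Its log2 fold change was 0.59 (SE 0.13) and 0.45 with the correction, and the groups were apart in each. Plod2, a collagen lysyl hydroxylase, had a log2 fold change of 0.70 (SE 0.13), and of 0.30 with the correction, where the groups overlapped. The fibroblast marker list, 6 of 6 tested with none at 0, summed to 798 to 913 CPM after vehicle and 914 to 1198 after dexmedetomidine, with 4 of 6 higher, and its part in the values of Lox and Plod2 was not tested.

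Receptors and relatives of Vegfa and Adm were 7 higher and 4 lower of 11 tested (median 0.02). Calcrl, which forms the adrenomedullin receptor with Ramp2 or Ramp3, measured 25.6, 10.1 and 23.3 CPM after vehicle and 39.4, 38.3 and 55.9 CPM after dexmedetomidine. Its log2 fold change of 1.18 (SE 0.33, edgeR adjusted p = 0.114) was 0.33 with the correction, at a GC content of 37.8%. Without vehicle replicate 2, the lowest library, it was 0.86. Nrp1, a co-receptor of Vegfa, had a log2 fold change of 0.62 (SE 0.19) that went to 0.11 with the correction. Pgf, placental growth factor and a relative of Vegfa, had a log2 fold change of -0.77 (SE 0.24). It was -0.48 with the correction, where its groups overlapped, and -0.46 without vehicle replicate 2. The main Vegfa receptors Kdr and Flt1, named here after their values were seen, were at 0.12 and 0.00, and at 0.04 and -0.10 with the correction, with overlapping groups. Of the 78 list genes, 8 had groups apart in the same direction before and after the correction, against 10.7% of all genes tested. Those higher after dexmedetomidine were Lox, Ppp1r3c, Kdm3a and Vegfd, and those lower were Cited2, Slc16a3, Angptl4 and Ndrg1. The log2 fold change was 0.66 for Kdm3a (0.46 with the correction), 0.45 for Vegfd (0.31) and -0.26 for Ndrg1 (-0.30). Vegfd had low levels, at 1.21 to 1.93 CPM, and an edgeR adjusted p of 0.406. Among the 9 HIF genes the groups were apart in the same direction before and after the correction for 1, Ankrd37.

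**Figure D4:**
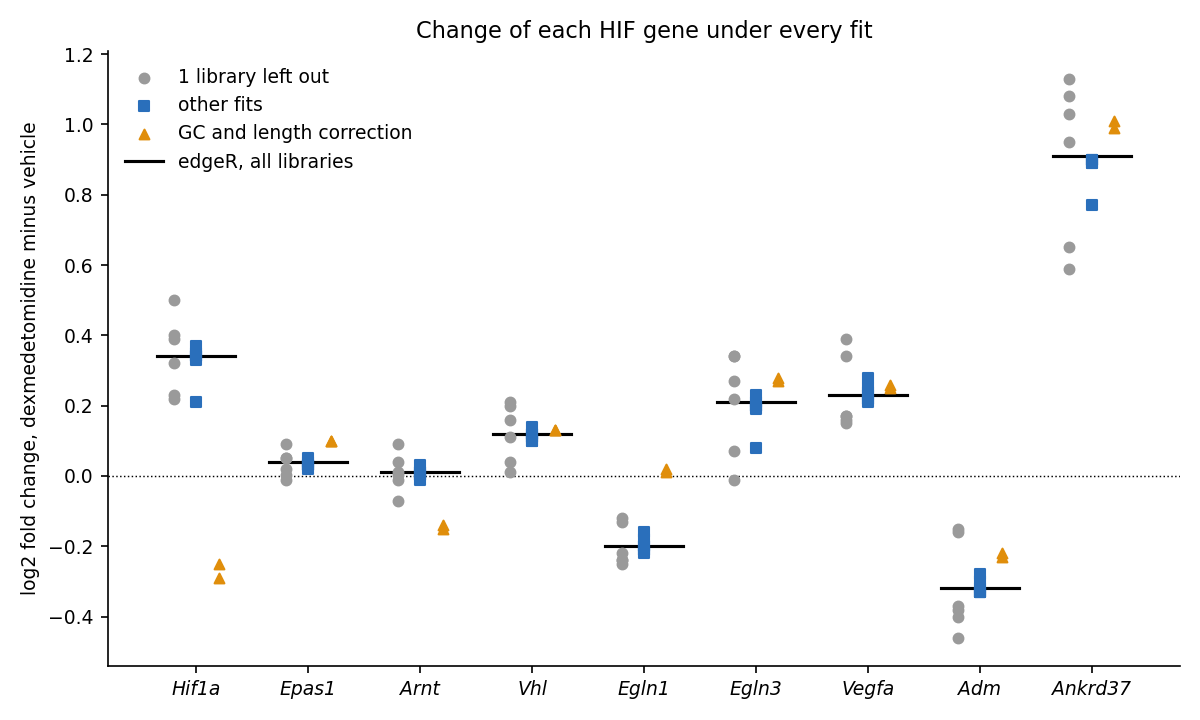
Log2 fold change (dexmedetomidine minus vehicle, vertical axis) of each of the 9 genes in edgeR with all libraries (black line), with 1 library left out (grey), in the other fits (blue) and with the GC and length correction, with and without the replicate block (orange). Vhl, Vegfa and Ankrd37 are above 0 and Adm below 0 in each fit that tested them, while Hif1a, Arnt and Egln1 cross 0 with the correction.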

How the data were processed

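The authors deposited raw counts, 1 row a gene and 1 column a library (3 libraries in each group), together with the length of every gene in bases. The tools named per the submitters' processing notes are Trim Galore and HTSeq, on build mm9. Sources used here name neither the aligner, the annotation and the versions, nor whether strand was used in counting. Per the labels' protocols, polyadenylated RNA was selected. The 5 summary rows that name no gene stayed out of library sizes and tests. Of all reads, ambiguous ones took 1.83% to 2.37% and those outside genes 2.33% to 3.63%. Alignments at more than 1 place took 31.4%, 28.6% and 28.0% after vehicle and 31.2%, 39.5% and 39.4% after dexmedetomidine. Identifiers were matched to symbols for 32897 of 37620 genes. The labels do not say that samples came from separate animals, and the spread behind each p-value may then be technical. No libraries agreed within sampling noise (chi-square per degree of freedom 29.0 or more). By that measure dexmedetomidine replicate 1 was closer to vehicle replicates 1 (68) and 3 (58.5) than to dexmedetomidine replicates 2 (108) and 3 (133). Vehicle replicate 2 was further from it (185).

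The main test was the quasi-likelihood F test of edgeR 4.0.16 in R 4.3.3 (TMM, filterByExpr, robust), with Benjamini-Hochberg adjustment over 14738 genes, a threshold of 0.05 and a common biological coefficient of variation of 22.8%. DESeq2 1.42.0 and limma 3.58.1 (voom) were alternatives. The GC and length correction removed, as offsets in edgeR, each library's smooth trend (mgcv 1.9.3) of log2 CPM (prior count 2) on the GC content of the longest GENCODE M21 transcript and the deposited length. GENCODE M21 is on another build than mm9, so no coordinates of it are given, and promoter windows are RefSeq's. The edgeR, DESeq2 and limma-voom fits, and edgeR with the correction or with the replicate block, were tested on simulated data with known changes. The simulated counts held no trend on GC or length and no effect of replicate. They therefore cannot show whether the correction or the block removes such an effect. The other steps were not tested on simulated data. Named genes are the 9 members, the 3 genes of smallest p in each role list, and the 3 most correlated with Hif1a and with Vegfa. Kdr, Flt1, Kdm3a, Ndrg1 and Vegfd were named outside this rule, after their values were seen. Members, lists and alternatives were chosen with earlier results of these data known. Summed marker levels of macrophages (124 to 178 CPM), neutrophils (46.8 to 187), erythroid cells (392 to 723), adipocytes (411 to 636, led by Fabp4, with 1 of 5 markers tested) and atrium (7.52 to 59.9, 2 of 5 tested, Bmp10 at 0 in each library) overlapped between groups. That of smooth muscle and pericytes, led by Rgs5, was 966 to 1079 CPM after vehicle and 1275 to 1449 after dexmedetomidine, with 4 of its 6 genes lower.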

Additional observations from a re-analysis of the deposited data

How the results depend on the processing

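No member passed an adjusted p of 0.05 in any of the 16 fits (15 alternatives to the one reported), where the smallest adjusted p was 0.185, so the count of 0 held for each of them. Ankrd37 was not tested at a mean CPM of at least 5. Members at an unadjusted p under 0.05 went from 0 to 2 with no filter (Hif1a and Ankrd37), and to 1 in DESeq2, with the correction and without dexmedetomidine replicate 3 (Ankrd37 each time), without vehicle replicate 1 (Hif1a) and without vehicle replicate 2 (Vegfa). Over all genes edgeR's 0 calls became 406 with no filter, 1272 in DESeq2 and 2063 with limma-voom, and between 0 and 1251 with 1 library left out, the highest without vehicle replicate 3. Among the list genes the 0 calls became 5 with no filter, 13 in DESeq2 and 18 with limma-voom, and between 0 and 12 with 1 library left out, again highest without vehicle replicate 3. The cause of these differences was not tested. With the replicate number as a block (replicate block) 636 genes and 9 list genes were called, and 143 and 1 with the block and the GC and length correction together. That 1 gene is Hmox1 (edgeR adjusted p = 0.00686 with the block and 0.0281 with both), which was lower in each of the 3 same-numbered pairs. Same-numbered libraries had correlations of deviations of -0.05, 0.04 and 0.15. Vehicle replicates 1 and 2 were not most like their own number, so the numbers were not taken to pair the samples.

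Of 134 alternative values for single members, 11 changed sign. With the GC and length correction Hif1a was at -0.29 (-0.25 with the block), Arnt at -0.15 (-0.14) and Egln1 at 0.02 (0.01), and the difference in the Epas1 to Hif1a ratio was 0.34. Arnt was at -0.01 with library sizes free of mitochondrial genes, and at -0.01 and -0.07 without vehicle replicate 3 and dexmedetomidine replicate 3. Egln3 was at -0.01 without dexmedetomidine replicate 1, and Epas1 at -0.01 without dexmedetomidine replicate 3. With 1 library left out Epas1 ranged from -0.01 to 0.09, Arnt from -0.07 to 0.09 and Egln3 from -0.01 to 0.34. List medians went to -0.06 for partners and regulators with the correction and to 0.02 (0.04 with the block) for matrix, chromatin and other roles. With 1 library left out they ranged from -0.06 to 0.10 for partners and regulators, -0.34 to -0.15 for glucose use, -0.22 to -0.09 for mitochondria and survival, -0.27 to -0.08 for vessels, iron, oxygen and pH, 0.14 to 0.25 for matrix, chromatin and other roles, and -0.03 to 0.05 for receptors and relatives. The ratio difference ranged from -0.45 to -0.18. Groups that did not overlap among list genes went from 25 to 15 of 78 with the correction, a comparison chosen after seeing the data. Depth was lowest for Ankrd37, at 27 to 92 counts per library, so its counting error is the widest of the 9.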
